A study of Mus musculus with 6 samples.

Results

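Chromosome 8 genes were examined as a group in undifferentiated mouse embryonic stem (ES) cells. A gene was included when a probe set annotated with only its symbol was on the array and the GRCm38.p6 annotation puts it on mouse chromosome 8. Where several probe sets qualified, the one with the highest mean over the 6 arrays was used. This gave 961 genes of 19938 measured, from 1041 probe sets. The series compares the parental WT line w9.5 with Cl34, the only Hira-/- clone in it, on 3 Affymetrix GeneChip Mouse Gene 1.0 ST arrays for each line. Hira encodes a chaperone that places histone H3.3 into chromatin outside replication. Both lines were grown in serum-containing medium with ESGRO, and RNA was extracted with Trizol. Confluence at harvest varied, but which array had which confluence is not given. The labels call the arrays of a line biological replicates without saying how the cultures were kept apart, so p-values reflect only the variation among these arrays, part of which may be technical. Because Cl34 is a single clone, effects of Hira loss and other features of the clone cannot be told apart.

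Genes of a chromosome need not share a regulator, but they share its copy number and its large-scale organisation. A gain or loss of a chromosome changes the template for every gene on it. As background, cultured mouse ES cell lines are known to acquire extra chromosomes during passage, and gain of chromosome 8 is among the changes seen most often. Chromosome number was not measured in these samples, and its part in the values below was not tested. Mouse chromosome 8 carries the ES cell marker Zfp42 (Rex1), the E-cadherin gene Cdh1, and clusters of metallothionein, carboxylesterase and defensin genes. In bulk samples, fewer cells of a type and less RNA per cell cannot be told apart.

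All values are log2 expression values as deposited, and differences are Hira-null minus WT. Standard errors (SE) and p-values come from limma, a linear model in which each probe set's variance is drawn toward a value common to all. Benjamini-Hochberg adjustment was over 24919 probe sets kept, with significance set at 0.05. The Hira probe set read 7.49, 7.86 and 7.83 in the WT arrays against 7.4, 7.05 and 6.81 in Hira-null arrays, a difference of -0.64 (SE 0.19, limma adjusted p = 0.353). Its values in Cl34 were all below those of WT, without passing the test, and whether its probes lie in the deleted part is not given in the sources used here. Array medians were 4.93 to 5.02. Hira-null replicate 3 stood apart on principal component 1 (42.1% of the variance), at 65.4 against -31.6 to 2.26 for the other arrays. WT replicate 1 and Hira-null replicate 1 were the ends of principal component 2. The ES cell markers were high in both lines, with Pou5f1 at 10.91 to 11.58, Nanog at 10.7 to 11.12 and Sox2 at 9.44 to 10.41. Of the 10 listed, 5 had values below 0, among them Zfp42 (-0.43). At an unadjusted p under 0.05 (limma) 0 were lower and 2 higher, Tfcp2l1 (0.61) and Klf4 (0.41), both without overlap. Over all genes kept, 4.2% were higher at that level. Over 13 measured fibroblast and feeder markers the mean level was 5.52 to 6.13 in WT and 5.23 to 5.77 in Hira-null arrays. Of the 13 markers 9 had values below 0. At an unadjusted p under 0.05, 3 of the 10 kept were lower, Vim (-0.61), Ccn2 (-0.99) and Twist2 (-0.40), and Thy1 was higher (0.76). Acta2 stood at -1.28 and Col1a2 at -0.72, both highest in WT replicate 1. Vim read 9.34 to 10.55, whereas Dcn and Lum read 2.24 to 2.91, near the lowest values of the table. Over 12 endoderm markers the mean level was 6.38 to 6.81 in WT and 5.87 to 6.37 in Hira-null arrays. Of these 12 markers 10 had values below 0, and 4 of the 11 kept were lower at an unadjusted p under 0.05, against 6.35% of all genes kept. They were Cubn (-1.48, limma adjusted p = 0.222), Dab2 (-0.83), Lama1 (-0.59) and Gata6 (-0.55), none with overlap. Afp read 3.39 to 3.64. The part of these markers in the chromosome 8 values was not tested.

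The promoters of 5 genes whose values differed between the lines to unlike extents are shown as examples. Triml1, Triml2 and Zfp42 are consecutive in the gene order, and the first pair did not share the lower values of most strongly expressed genes, whereas Zfp42 read lower. That contrast rests largely on Hira-null replicate 3. Rpl13 read close to the chromosome median and Prmt7 well below it. Each sequence is the 250 bases before the first listed RefSeq start in GRCm38.p6, with CG dinucleotides in capitals. They lie at chr8:43141487-43141736, minus strand (Triml1), chr8:43180286-43180535, plus strand (Triml2), chr8:43307010-43307259, minus strand (Zfp42), chr8:123102100-123102349, plus strand (Rpl13) and chr8:106210804-106211053, plus strand (Prmt7).
Triml1: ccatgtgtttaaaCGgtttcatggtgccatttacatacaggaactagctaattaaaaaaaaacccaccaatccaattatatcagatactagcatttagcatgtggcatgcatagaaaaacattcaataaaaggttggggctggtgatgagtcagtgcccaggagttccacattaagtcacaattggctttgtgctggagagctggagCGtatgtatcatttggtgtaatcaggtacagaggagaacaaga
Triml2: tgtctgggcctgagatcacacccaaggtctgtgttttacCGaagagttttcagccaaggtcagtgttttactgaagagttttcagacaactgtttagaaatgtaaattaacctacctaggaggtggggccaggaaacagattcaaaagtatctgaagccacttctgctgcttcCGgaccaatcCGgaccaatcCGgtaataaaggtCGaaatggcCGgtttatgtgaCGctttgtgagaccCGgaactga
Zfp42: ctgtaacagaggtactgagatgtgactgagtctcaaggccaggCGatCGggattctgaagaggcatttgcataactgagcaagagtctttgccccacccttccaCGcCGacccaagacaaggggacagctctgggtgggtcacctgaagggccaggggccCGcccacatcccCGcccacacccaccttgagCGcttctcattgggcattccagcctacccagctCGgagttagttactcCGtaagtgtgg
Rpl13: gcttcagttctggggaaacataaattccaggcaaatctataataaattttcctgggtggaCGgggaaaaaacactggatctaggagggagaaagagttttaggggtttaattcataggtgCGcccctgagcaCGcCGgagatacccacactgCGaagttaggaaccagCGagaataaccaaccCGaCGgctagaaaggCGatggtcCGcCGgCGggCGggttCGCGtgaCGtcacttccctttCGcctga
Prmt7: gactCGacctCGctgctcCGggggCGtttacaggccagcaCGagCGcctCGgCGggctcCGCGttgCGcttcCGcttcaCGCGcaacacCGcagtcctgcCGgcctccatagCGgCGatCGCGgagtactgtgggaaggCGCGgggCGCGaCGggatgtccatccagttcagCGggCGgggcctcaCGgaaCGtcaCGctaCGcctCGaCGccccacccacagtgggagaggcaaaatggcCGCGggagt
The Triml1 promoter holds 2 CG dinucleotides and the Triml2 promoter 8. Zfp42 has 9, Rpl13 17 and Prmt7 35. Of promoters not shown, that of Tbc1d9 (-1.35) holds 4, that of Galnt7 (-1.33) 19 and that of Mt2 (-0.21) 21. Among the 5 shown the number was lowest for Triml1, which had the highest difference, and highest for Prmt7, which had the lowest. Tbc1d9 and Mt2 do not follow that order. A relation of this number to the difference was not tested. Over the members with a promoter in the table the number runs from 0 to 51. Of 27025 promoters in the table, 38.2% hold at least 10.

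Most chromosome 8 genes had lower values in the Hira-null arrays. Of 961 genes, 763 (79.4%) had a log2 fold change below 0, against 50.2% of all genes with a chromosome. The median was -0.21, with quartiles of -0.42 and -0.03. The median over 17392 genes of chromosomes other than 8 and 11 was 0.01. The lines did not overlap, with lower Hira-null values, for 306 genes (31.8%), against 8.39% of all genes. They did not overlap in the other direction for 16 genes (1.66%), against 7.27% of all genes. The median deviation of chromosome 8 genes from their own 6-array means was 0.12, 0.09 and 0.07 in WT arrays and -0.13, -0.09 and -0.09 in Hira-null arrays. Thus each WT array lay above each Hira-null array. The general shift was already known when the chromosome was chosen, so it is given as a description with no test.

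No single gene passed the test (0 of 810 kept, limma). In the whole table, 1 probe set passed (0.00401%), and it does not represent a member. The smallest adjusted p of a member was 0.222. At an unadjusted p under 0.05, 235 members (29.0%) were lower, against 6.35% of all genes kept. Only 3 members (0.370%) were higher at that level, against 4.2% of all genes kept. The filter kept genes whose mean over all 6 arrays exceeded 3.78, and the 151 members below it had a median of -0.03, with 92 lower. The limma fit was also tested against the median of each gene's own chromosome, -0.27 over the 810 kept members. Here too 0 of 810 passed (smallest adjusted p = 0.267), with 109 at an unadjusted p under 0.05, of which 49 lay below and 60 above the median. Over all genes kept, 0.0% passed this test. With the chromosome's median within the gene's level class (low, mid or high mean) in its place, an alternative chosen after seeing the data, 0 passed as well.

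**Figure D1:**
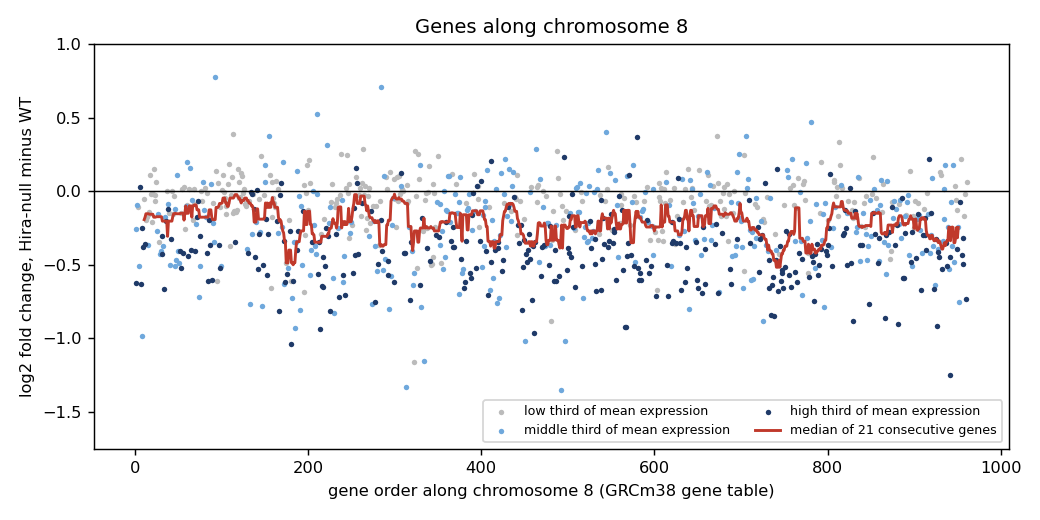
Log2 fold change (Hira-null minus WT) of each of 961 chromosome 8 genes against gene order, coloured by low, mid or high mean expression, with the median of 21 consecutive genes as a line. The line stays between -0.52 and -0.02 along the chromosome, and dark points of the high class lie mostly below -0.2.

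The size of the difference depended on the level at which a gene's probe set read. Members were split by the mean over all 6 arrays into 3 level classes of equal size, low up to 4.92, mid up to 7.03 and high above. Levels of different probe sets are not a common scale of abundance, so the classes are a coarse ranking. The median log2 fold change was -0.05 in the low class, -0.22 in the mid class and -0.40 in the high class. In the high class, 302 of 320 genes (94.4%) read lower, and the lines did not overlap for 181 (56.6%) with lower values and for 0 with higher values. A median of -0.40 is 1.32-fold lower. Genes of other chromosomes in the same ranges of means had medians of 0.003, 0.04 and 0.02.

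In 10 classes of members by mean, the change was not gradual throughout. The medians were -0.02, -0.06, -0.08 and -0.08 in the lowest 4 classes, up to a mean of 5.28. They were -0.15 and -0.28 in the fifth and the sixth class. From the seventh class, which begins at a mean of 6.63, the medians were -0.40, -0.39, -0.41 and -0.40. A plateau therefore held over the 4 highest classes, up to a mean of 12.1. Genes of chromosome 11, the other chromosome with lower values, read -0.07, -0.22 and -0.41 in the same low, middle and high ranges.

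**Figure D2:**
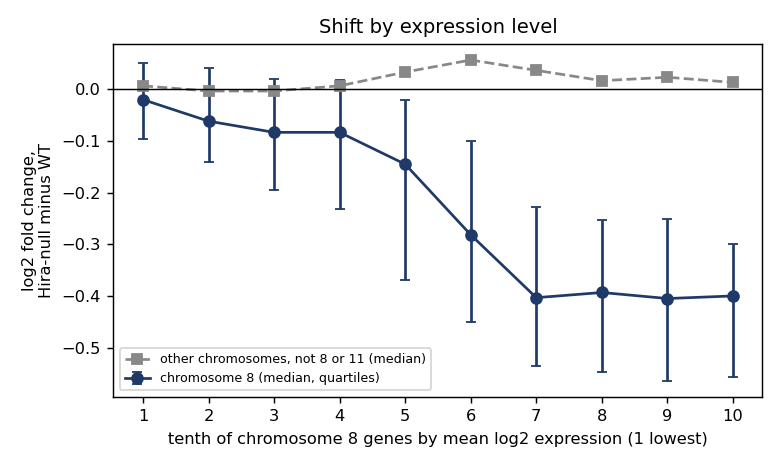
Median log2 fold change (Hira-null minus WT) of chromosome 8 genes in 10 classes of mean log2 expression, with quartiles as bars, and the median of genes of other chromosomes in the same ranges. The chromosome 8 medians go from -0.02 in the lowest class to about -0.40 in the 4 highest, while the other chromosomes stay between -0.003 and 0.06.

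The array medians showed the same dependence. In the high class the medians were 0.20, 0.20 and 0.23 in WT arrays and -0.14, -0.21 and -0.27 in Hira-null arrays. In the mid class they were 0.18, 0.06 and 0.05 against -0.14, -0.11 and -0.07. In the low class they overlapped, at 0.02, 0.06 and -0.01 in WT arrays against -0.11, 0.04 and -0.02 in the Hira-null ones. The lowest value in the high class was that of Hira-null replicate 3, the array that stood apart. Without it the median log2 fold change of these genes was -0.38, and leaving out WT replicate 1 as well gave -0.39. The spread among high-level genes (SD 0.24) was not wider than among genes of other chromosomes in the same range (SD 0.27).

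**Figure D3:**
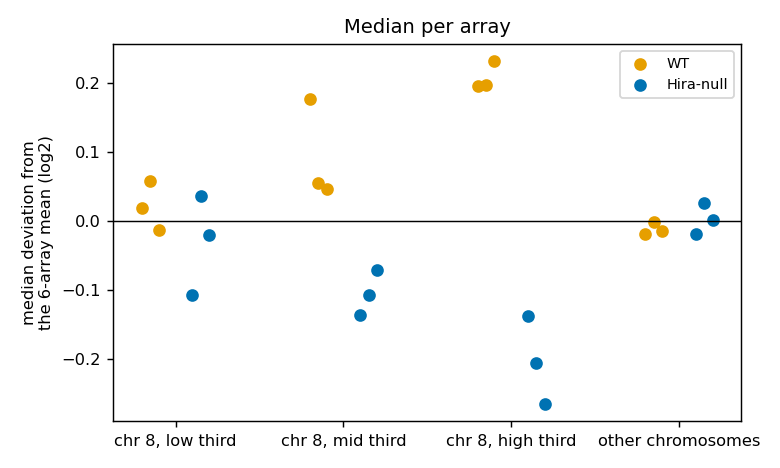
Median deviation from the gene's 6-array mean (log2) for each array, for chromosome 8 genes in the low, mid and high classes of mean expression and for genes of chromosomes other than 8 and 11. WT points lie above all Hira-null points in the mid and high classes, overlap them in the low class, and both lie near 0 for the other chromosomes.

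The lower values were found along the whole gene order. In 10 segments of equal gene number the medians ran from -0.28 to -0.12. The least negative was the second segment, from Angpt2 to Got1l1, which holds the defensin cluster and has 46 of 96 genes in the low class. The most negative was the eighth, from Car7 to Atxn1l. For high-level genes alone the segments ran from -0.53 in the eighth to -0.34 in the second, and in each segment at least 22 of these genes read lower. In all 10 segments the high-level medians per array lay between 0.12 and 0.31 in WT and between -0.41 and -0.07 in Hira-null arrays, without overlap. Adjacent genes resembled each other little. Spearman's rho between the log2 fold changes of neighbours was 0.09 over 961 genes and 0.02 over the 641 genes of the mid and high classes, a description over points that share arrays and chromosome.

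The window of 21 consecutive genes with the lowest median ran from Ddx28 to Terf2, at -0.52, with 20 of 21 genes lower and 15 in the high class. It holds Utp4, a small-subunit processome gene for ribosome assembly, at -0.61, and Prmt7, a protein arginine methyltransferase gene, at -0.85. Prmt7 read 9.75, 9.39 and 9.61 in the WT arrays against 8.68, 8.71 and 8.81 in Hira-null arrays (SE 0.14, limma adjusted p = 0.222). All WT values of Prmt7 lay above all Hira-null values. The same window holds the only one of its genes at a higher value, Cdh1. The window with the highest median ran from Cldn24 to Scrg1, at -0.02, with 11 of 21 genes lower. It has 12 genes in the low class, among them the glycine receptor gene Glra3, the neuronal membrane gene Gpm6a and the heart transcription factor gene Hand2. Its genes with the highest means were the deoxycytidylate deaminase gene Dctd (-0.47), the signal peptidase gene Spcs3 (-0.62) and the F-box gene Fbxo8 (0.12). At the ends of the gene order, the insulin receptor gene Insr read -0.26 and the integrin gene Itgb1 -0.73. Insr overlapped between the lines and stood at 0.10 without WT replicate 1, and Itgb1 did not overlap.

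Genes that followed the shift closely are here the 8 with the highest means within 0.1 of the median of -0.21 and whose lines did not overlap. Their differences were smaller than -0.40, the median of high-level genes. Rpl13, of the large ribosomal subunit, read 11.83, 11.66 and 11.76 in the WT arrays against 11.43, 11.43 and 11.56 in Hira-null arrays, a difference of -0.28 (SE 0.12). Its 8 further probe sets read -0.32 to -0.28, with identifiers far apart, so near-identical copies cannot be told apart from the gene. Cnot1, the scaffold of the CCR4-NOT deadenylase, read 10.79, 10.6 and 10.69 against 10.45, 10.45 and 10.46. The other 6 were the metallothionein gene Mt2 (-0.21), the ribosome recycling factor gene Abce1 (-0.24), Ash2l of histone H3K4 methyltransferase complexes (-0.27), the RNA-binding protein gene Elavl1 (-0.31), Tcf25 (-0.30) and Gatad2a of the NuRD complex (-0.25). Their limma adjusted p ran from 0.456 to 0.635.

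Genes that exceeded the shift stood at -0.80 or lower in 29 cases, a limit chosen after the values were seen. They were spread over all 10 segments, and the lines did not overlap for 24 of them. The 10 lowest named genes without overlap ran from -1.35 to -0.91, and the next stood at -0.90. None passed the test (limma adjusted p = 0.222 to 0.409), nor did any pass against the chromosome median (adjusted p = 0.267 to 0.661).

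Tbc1d9, of a family of Rab GTPase-activating proteins, had the largest difference. It read 6.96, 7.29 and 6.74 in the WT arrays against 6.01, 5.49 and 5.43 in Hira-null arrays, or 2.56-fold lower (SE 0.21). Galnt7, which adds sugars in mucin-type O-glycosylation, read 7.83, 6.96 and 7.13 against 5.85, 5.92 and 6.15 (2.52-fold, SE 0.24). For both genes the gap between the lines was wider than the spread of the Hira-null arrays. For Galnt7 the gap was narrower than the spread of the WT arrays. Apela encodes a peptide ligand of the apelin receptor that ES cells secrete. It read 7.51, 7.83 and 7.33 in the WT arrays against 6.8, 6.46 and 5.94 in Hira-null arrays (2.23-fold, SE 0.24), lowest in Hira-null replicate 3.

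Gsr, the glutathione reductase gene, read 9.18, 9.08 and 9.38 against 8.36, 8.52 and 7.96 (1.91-fold, SE 0.18). The ubiquitin ligase gene Rnf170 stood at -0.93, and its other probe set at -0.72. The coiled-coil gene Scoc stood at -1.02 but at -0.05 on its other probe set, so its probe sets disagree. The probe sets used for Scoc and Rnf170 have identifiers far from those of neighbouring genes, unlike their other probe sets. Which locus they read was not checked, so the place of Scoc here is uncertain. The same limit holds for Gabarapl2, Got2 and Polr2c below. Egln1 encodes the prolyl hydroxylase that marks HIF for degradation. It read 8.22, 7.04 and 7.87 in the WT arrays against 6.37, 7.03 and 5.99 in Hira-null arrays, so WT replicate 2 and Hira-null replicate 2 were almost equal. Leaving out the pair of WT replicate 1 and Hira-null replicate 3, its difference was -0.76. Urb2, a ribosome biogenesis gene, read 9.48, 9.7 and 9.52 against 9.17, 8.9 and 7.89. Its difference of -0.91 was -0.53 without Hira-null replicate 3. The RNA helicase gene Ddx60 (-1.16) read 3.26 to 3.55 in Hira-null arrays, under the level of the filter, and stood at -0.75 without WT replicate 3. Rps23rg1 (-0.98), a retrogene of the ribosomal protein gene Rps23, has near-identical copies, so its signal is uncertain. It stood at -0.60 without WT replicate 1.

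**Figure D4:**
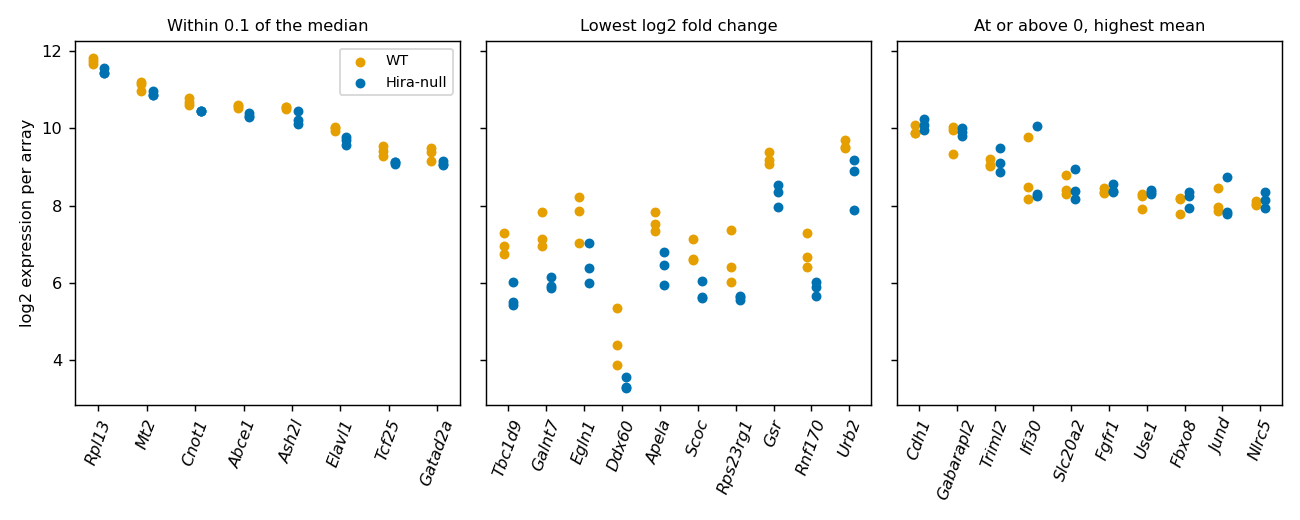
Log2 expression in each of 6 arrays for named genes. The first 8 lie within 0.1 of the chromosome median and were chosen without overlap between the lines. The next 10 have the lowest log2 fold change among named genes kept by the filter and without overlap. The last 10 are those at or above 0 with the highest means. By this choice WT points lie above Hira-null points for the first 18 genes. The lines overlap for the last 10.

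Genes that escaped the shift were few among those that read at a high level. In the high class, 18 of 320 had a log2 fold change of 0 or above, and they lay in all 10 segments. They were chosen by this value, so their values are a description. None passed against the chromosome median (limma adjusted p = 0.461 to 0.924 for the 10 with the highest means). For 12 of the 18 the 95% limma interval lay above -0.40, and for the others it included that value. Because the genes were chosen by the same values, this count is no evidence that single genes escape. The median of the 18 genes was 0.10. Hira-null replicate 3 contributed to it, with a median deviation of 0.29 against -0.16 to 0.07 in the other arrays. Without that array the median of the same genes was 0.03 and 10 of 18 stood at 0 or above.

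Cdh1, the gene of E-cadherin, which joins ES cells into compact colonies, kept its sign under every alternative tried. It read 10.09, 9.87 and 9.87 in the WT arrays against 10.08, 9.95 and 10.25 in Hira-null arrays, a difference of 0.15 (SE 0.14, interval -0.18 to 0.48). The lines overlap. Over the alternatives it ranged from 0.07 to 0.22. Its neighbour Cdh3, of P-cadherin, read 8.09, 8.01 and 7.95 against 7.46, 7.47 and 7.71, a difference of -0.47 (SE 0.13) without overlap. On the other side, Tango6 read -0.68.

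Triml1 and Triml2 are tripartite motif genes of early embryos and neighbours of Zfp42. Triml2 read 9.22, 9.06 and 9.02 in the WT arrays against 9.1, 8.88 and 9.48 in Hira-null arrays, a difference of 0.05 (SE 0.18). Triml1 stood at 0.16 (SE 0.19). Zfp42, the Rex1 gene, read 9.55, 10.22 and 9.96 against 9.88, 9.59 and 8.98, a difference of -0.43 (SE 0.27). Its lines overlap, and without Hira-null replicate 3 the difference was -0.18. Triml2 stood at -0.11 without the same array, so the contrast of Zfp42 with its neighbours rests largely on that array.

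Fgfr1, the FGF receptor gene, read 8.46, 8.32 and 8.34 in the WT arrays against 8.37, 8.35 and 8.57 in Hira-null arrays, a difference of 0.06 (SE 0.13, interval -0.24 to 0.35). Use1, a SNARE of retrograde transport, stood at 0.20 (interval -0.14 to 0.55), and its sign held in all alternatives. Fbxo8 stood at 0.12 and Nlrc5, an activator of MHC class I genes, at 0.09. The further probe sets of Nlrc5 had means of 3.28 to 6.13, all below the high class, and ran from -0.11 to 0.25. The autophagy gene Gabarapl2 stood at 0.12 at a mean of 9.85, and its other probe set at 0.33 at a mean of 5.29. Its place in the high class thus rests on the first of these. Slc20a2, a phosphate transporter gene, stood at 0.01. Wide spread marked Ifi30, a lysosomal thiol reductase gene, which read 9.78 in WT replicate 1 and 10.06 in Hira-null replicate 3 but 8.16 to 8.47 in the other arrays. The AP-1 gene Jund had the same pattern, with 8.45 and 8.74 in those arrays and 7.79 to 7.95 in the rest. For Ifi30 and Jund the intervals, -1.34 to 1.48 and -0.66 to 0.73, hold both 0 and -0.40.

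Higher values without overlap between the lines were found for 9 of the 810 members kept by the filter. The 6 named here had the highest differences among them, predicted genes and small RNAs aside. None of the 6 passed the test (limma adjusted p = 0.408 to 0.650). Kbtbd11 read 5.37, 5.45 and 5.25 in the WT arrays against 6.31, 5.52 and 6.56 in Hira-null arrays, a difference of 0.77 (SE 0.26). Its other probe set stood at 0.15. Il34, a ligand of the CSF1 receptor, read 5.07, 5.3 and 4.69 against 5.49, 5.4 and 5.57 (0.47, SE 0.18). The tubulin polymerisation gene Tppp3 stood at 0.38, Vat1l at 0.34, the homeobox gene Zfhx3 at 0.22 and the netrin receptor gene Unc5d at 0.21. Leaving out 1 array moved several of these values by over 1.5 times. Vat1l stood at 0.12 and Unc5d at 0.13 without WT replicate 1, Tppp3 at 0.24 without Hira-null replicate 1 and Il34 at 0.30 without WT replicate 3. All 6 had means below the high class.

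Groups of genes by function were described by their counts beside the whole chromosome, and by a difference from members of like level, which is the log2 fold change minus the median of the members nearest in mean. Over the whole chromosome 79.4% of genes read lower, and in the high class 94.4%, with 157 of 320 at an unadjusted p under 0.05. Genes of housekeeping processes, most of them in the high class, read lower almost throughout. All 25 genes of RNA processing and translation had lower values, with a median of -0.47 and 15 of 25 at an unadjusted p under 0.05. Of these genes 23 are in the high class, so their counts are to be read beside those of that class. Examples are the nuclear pore gene Nup133 (-0.67), the deadenylase gene Cnot7 (-0.57) and Tarbp1 (-0.75), an RNA methyltransferase gene. Against members of like level their median was -0.12, with 17 of 25 below 0.

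Genes of mitochondria and metabolism included 27 of 29 with lower values, and their median was -0.44. The ADP/ATP carrier gene Slc25a4 read 11.22, 10.77 and 10.86 in the WT arrays against 10.3, 10.28 and 10.01 in Hira-null arrays, a difference of -0.75. The aspartate aminotransferase gene Got2 stood at -0.63 on both of its probe sets, and Ndufb7, of respiratory complex I, at -0.54. Their median against members of like level was -0.11. In protein turnover and trafficking all 18 genes read lower, with a median of -0.43, among them the clathrin adaptor gene Ap1m1 (-0.81), Arl2bp (-0.67) and Spcs3 (-0.62). In this group the median against members of like level was -0.02.

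Replication, repair and cell division genes included 22 of 23 with lower values, and their median was -0.37. Fanca, of the Fanconi anaemia core complex, stood at -0.67, the neddylation enzyme gene Nae1 at -0.69 and the replication licensing gene Cdt1 at -0.59. Chromatin and transcription genes included 28 of 33 with lower values, and their median was -0.36. The bromodomain gene Brd7 stood at -0.60, Nfatc3 at -0.66 and the RNA polymerase II subunit gene Polr2c at -0.52, with -0.26 on its other probe set. The insulator gene Ctcf read 8.84, 9.34 and 9.2 in the WT arrays against 9.17, 8.84 and 8.32 in Hira-null arrays, with overlap, at -0.35 (SE 0.24), and stood at -0.12 without Hira-null replicate 3. Against members of like level the medians of these groups were 0.01 and 0.00.

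Genes of ES cell state and the early embryo were close to members of like level only by their median. Single genes differed from such members by 0.58 (Triml1) to -0.43 (Prmt7). Values were lower for 11 of 15 and the median was -0.25, and 11 of them read in the high class. Against members of like level the median was -0.01, with 8 of 15 below 0. Klf2, a naive pluripotency factor gene, read 9.08, 8.94 and 9.04 in the WT arrays against 8.52, 8.63 and 8.36 in Hira-null arrays, at -0.52 (SE 0.13). All WT values lay above all Hira-null values. Thap11 (-0.55) and Gab1 (-0.40) were also lower at an unadjusted p under 0.05, as were Prmt7 and Cdh3. Smad1, a transducer of BMP signals, stood at -0.21 with overlap, and at -0.08 without Hira-null replicate 1. The 4 genes at higher values were Cdh1, Triml1, Triml2 and Fgfr1.

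Carboxylesterase, defensin and ADAM protease genes mostly read low, and their medians were near 0. Carboxylesterase genes included 10 of 16 with lower values, and their median was -0.04, with Ces5a (0.13), Ces1b (-0.07) and Ces3a (0.05) as examples. Defensin genes, which all lie in the second segment, included 13 of 23 with lower values, and their median was -0.01, with Defb33 at -0.14, Defb34 at -0.10 and Defb35 at -0.09. Of ADAM protease genes 9 of 14 read lower, with a median of -0.03. Only 4 carboxylesterase, 6 defensin and 1 ADAM genes passed the filter. The last was Adam9, at -0.20 and at -0.02 without WT replicate 1, while Adam18 (-0.04) and Adam3 (-0.08) did not pass it. Developmental transcription factor genes included 5 of 11 with lower values, and their median was 0. Only 1 of the 11 is in the high class, and their median level was 4.73. Against members of like level their median was 0.09. Among them Irx6 stood at -0.28, Irx5 at -0.24 and Zfp423 at 0.37. Irx5 stood at -0.05 without WT replicate 1, and Zfp423 at 0.19 without Hira-null replicate 2. Zinc finger genes, with a median level of 5.99 close to the chromosome's 6.04, included 17 of 24 with lower values, and their median was -0.20, with Zfp330 at -0.57, Zfp1 at -0.79 and Zfp866 at -0.45. Of those kept, 7 of 22 were lower at an unadjusted p under 0.05, against 29.0% of all members kept.

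Signalling genes included 14 of 19 with lower values, and their median was -0.09. Of 15 kept, 0 were past an unadjusted p of 0.05 in either direction (limma), against 29.0% lower among all members kept. Only 1 of the 19 is in the high class, and their median level was 5.2. Against members of like level their median was 0.08. The hedgehog-binding gene Hhip stood at -0.88, the chemokine gene Cx3cl1 at -0.27 and the kinase gene Ikbkb at -0.28, with overlap for each. Hhip ranged from -1.35 without WT replicate 1 to -0.51 without WT replicate 2. Adhesion and matrix genes included 10 of 14 with lower values, and their median was -0.07. Only 2 of the 14 are in the high class, and their median level was 4.49. Against members of like level their median was 0.015. The basement membrane collagen genes Col4a1 (-0.51) and Col4a2 (-0.47) and the metalloprotease gene Mmp2 (-0.71) had the smallest p, and the lines overlapped for all of them. For example, Mmp2 read 8.62, 7.44 and 7.25 in the WT arrays against 6.77, 6.77 and 7.64 in Hira-null arrays. Without WT replicate 1 it stood at -0.29, and without Hira-null replicate 1 Col4a1 stood at -0.29 and Col4a2 at -0.27. WT replicate 1 also had the highest fibroblast and endoderm marker medians, 0.43 and 0.52 above the 6-array means, and their part in these values was not tested.

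The metallothionein genes bind zinc and copper ions and lie side by side. All 4 had values below 0. Mt1 stood at -0.35, Mt2 at -0.21, Mt3 at -0.51 and Mt4 at -0.06. Mt3, a form known from the nervous system, read 6.51, 6.61 and 6.63 in the WT arrays against 6.09, 6.26 and 5.88 in Hira-null arrays, without overlap. Mt1 and Mt2 are similar in sequence, and signal from one could reach the other's probe set.

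**Figure D5:**
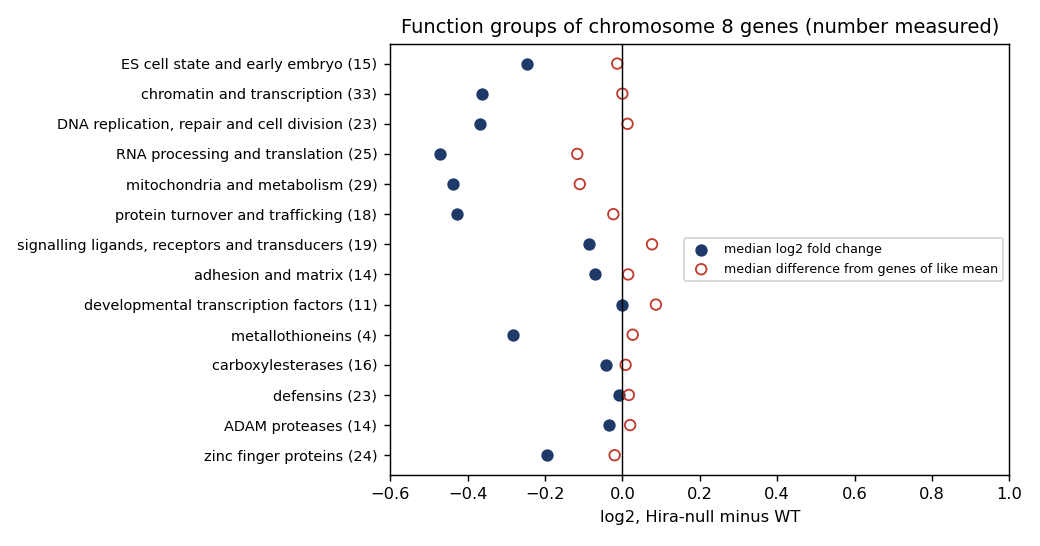
Median log2 fold change (filled) of 14 function groups of chromosome 8 genes, and their median difference from chromosome 8 genes of like mean (open), with the number of genes measured. Filled points range from -0.47 for RNA processing and translation to 0 for developmental transcription factors, while open points lie between -0.12 and 0.09.

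Features outside the rule were compared within the level classes. A RefSeq promoter was matched for 653 of 961 members, and 62.9% of these held at least 10 CG dinucleotides in the 250 bases before the start, a limit chosen after the values were seen. The share was 23.5% in the low class and 87.1% in the high class. Within the high class, 202 CG-rich promoters had a median of -0.41 and 30 CG-poor ones a median of -0.36, with quartiles of -0.55 and -0.30 against -0.46 and -0.20. In the mid class the medians were -0.24 and -0.17, and in the low class -0.07 and -0.05. The quartile ranges of CG-rich and CG-poor promoters overlapped in each of them. Of the high-level genes at or above 0, 12 had a promoter in the table and 7 of these were CG-rich.

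Protein-coding members (906) had a median of -0.23, and the 55 others a median of -0.01. Among the others were 12 miRNA genes, of which 6 read lower, with a median of 0.01. The probe sets of Mir27a (-0.34) and Mir24-2 (0.03), which lie in one cluster, overlapped between the lines. The genes outside the protein-coding class had a lower median level, 4.82 against 6.17. A further 80 probe sets of 47 members were not used to represent a gene. Of these, 63 passed the filter, 48 of them with lower values and a median of -0.23, against -0.28 for the probe sets that represent the same genes. Nlrc5 has 18 of the 80 and Rpl13 has 8, so these genes weigh heavily in the counts.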

How the data were processed

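Total RNA from 6 cultures was measured on 6 arrays, 3 per line. The authors deposited log2 expression values per probe set, rounded to 2 decimals and already normalized between arrays. Per the submitters' processing notes they used GCRMA, whose version and settings, like the genome build, are not stated in the sources used. That the scale is log2 follows from the range of 1.14 to 14.03. GCRMA usually ends with quantile normalization, which would hide a change of most genes.

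Of 35557 probe sets, 21789 carry 1 symbol in the platform annotation, 1621 several and 12147 none. Entrez identifiers matched 21698 to the GRCm38.p6 table and symbols a further 68. That table gave current names, the chromosome and the order of genes. Coordinates are printed only for RefSeq promoters. Probe sets with a mean over the 6 arrays above the 30th percentile of all values (3.78) were kept. The comparison was fitted with limma 3.58.1 in R 4.3.3 (lmFit, eBayes, two-sided, no covariates), and the code was tested on simulated data. Precision is limited by having 3 arrays per line. The median SE was 0.16 over the 810 members kept.

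The members, gene lists and naming rules were chosen with earlier results of these data known. Small RNAs, pseudogenes, predicted genes, clones and olfactory or vomeronasal receptors aside, named genes were 8 that followed the median within 0.1, the 10 lowest and 6 highest kept genes without overlap, the 10 of highest mean at or above 0, the ends and extreme windows of the gene order, up to 3 per function list by smallest p, and Zfp42, Klf2, Smad1, Ctcf and Cdh1. Other genes named, such as Triml1, Tango6, Glra3, Gpm6a, Hand2, Thap11, Gab1, Mir27a and Mir24-2, were chosen after their values were seen. Alternatives covered filters, scaling, probe set choice, eBayes settings, array weights, the replicate block and arrays left out.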

Additional observations from a re-analysis of the deposited data

How the results depend on the processing

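The chromosome 8 median of -0.21 was -0.34 with the stricter filter (mean above 4.99), -0.27 when 3 of 6 arrays had to exceed 3.78 and -0.24 with arrays centred on genes outside chromosomes 8 and 11, and the share of genes with lower values was 87.1% with the stricter filter. These filters remove genes of low level. Without 1 array at a time the median ranged from -0.22 to -0.19, the share from 72.4% to 81.2% and the median of high-level genes from -0.47 to -0.38, with 72.4% and -0.47 both given without Hira-null replicate 1. The number lower at an unadjusted p under 0.05 ranged from 161 to 237, and the number higher from 1 to 3, being 1 without WT replicate 3 or Hira-null replicate 3, 5 with arrayWeights and 4 without the pair of WT replicate 1 and Hira-null replicate 3. No gene of the chromosome passed an adjusted p of 0.05 in either test under any alternative (limma). Of 1445 values of 81 named genes under alternatives, 1407 kept their sign and side of the threshold and 38 turned sign, all in genes that did not pass. With arrayWeights these were Gabarapl2 (-0.047), Triml2 (-0.041), Ifi30 (-0.093), Slc20a2 (-0.19), Jund (-0.071), Defb35 (0.025) and Defb33 (a Defb33 log2 fold change of 1.46e-05). Leaving out the pair of WT replicate 1 and Hira-null replicate 3, they were Gabarapl2 (-0.16), Triml2 (-0.05), Ifi30 (-0.04), Slc20a2 (-0.27), Jund (-0.09), Ces1b (0.07), Defb33 (0.04) and Defb35 (0.015), and with centring on the other chromosomes Slc20a2 (-0.027). Without 1 array at a time the ranges that crossed 0 were -0.10 to 0.25 for Gabarapl2, -0.11 to 0.19 for Triml2, -0.53 to 0.56 for Ifi30, -0.22 to 0.17 for Slc20a2, -0.013 to 0.10 for Fgfr1, -0.017 to 0.25 for Fbxo8, -0.27 to 0.22 for Jund, -0.018 to 0.20 for Nlrc5, -0.57 to 0.10 for Insr, -0.18 to 0.07 for Mt4, -0.14 to 0.04 for Ces1b and -0.047 to 0.22 for Ces3a. The cause was not tested.

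The replicate numbers were not taken to pair the arrays. Same-numbered arrays had correlations of -0.35, 0.17 and -0.10 between their deviations from the line means. The highest correlations were between arrays of unlike number, 0.45 for WT replicate 1 with Hira-null replicate 3 and 0.37 for WT replicate 2 with Hira-null replicate 1. With the replicate block 177 genes were lower and 2 higher at an unadjusted p under 0.05, against 235 and 3 without it. No gene passed an adjusted p of 0.05 (limma) with or without the block, so there was no call to change. Raw signals and their background were not analysed here, which limits what the 320 genes of lowest level can show.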
